A study of Homo sapiens with 30 samples.

Results

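The genes described here are 40 genes of sugar breakdown and of the response to low oxygen, followed across 4 RNA fractions of a human cell line. They were chosen by name and function, 19 as enzymes of glycolysis or its regulators and 21 as genes that rise when oxygen is scarce, and all 40 were found by symbol among the 27630 genes of the count tables. The choice was made with part of the readout known, namely that GAPDH is lower in nuclear than in cytosolic RNA, and that NDRG1 and ALDOC are lower in the PFA-fixed lamina preparation than in cytosolic RNA. Results against the cytosolic fraction are therefore given as a description without p-values. In total 39 of the 40 passed the filter on low counts, 19 enzymes and 20 low-oxygen genes, and CA9, a carbonic anhydrase of the cell surface, did not, with at most 13 counts in any library.

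RNA was sequenced from HEK293FT, a fast-growing derivative of the human embryonic kidney line HEK293 that carries the SV40 large T antigen. The labels describe asynchronous cells for all 4 groups of 2 libraries, and every group, the fractions included, carried a transfected fusion of the peroxidase APEX2 with lamin B1, a protein of the nuclear lamina. They comprise a nuclear and a cytosolic fraction, RNA recovered by APEX2 labelling at the lamina in a native preparation, and the same after paraformaldehyde (PFA) fixation. No untransfected or unlabelled library is among the groups, no oxygen treatment is named, and each library pools many cells, so fewer cells carrying a transcript and less of it per cell cannot be told apart. Nothing in the labels says that the 2 libraries of a group came from separate cultures, so the p-values measure the spread between these libraries, which may be technical.

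Glycolysis splits glucose into pyruvate in the cytosol and yields ATP without oxygen. Hexokinases trap the sugar, phosphofructokinases commit it, aldolase to pyruvate kinase harvest its energy, and lactate dehydrogenase turns pyruvate into lactate. When oxygen falls, prolyl hydroxylases such as EGLN1 stop marking the hypoxia-inducible factor (HIF) for destruction, and HIF then raises the transcription of most glycolytic enzymes together with genes for glucose uptake, vessel growth, collagen maturation and mitophagy, by binding promoters and enhancers that hold the core letters ACGTG or GCGTG.

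Total counts ran from 2321291 in PFA replicate 2 to 8557777 in native replicate 1, and 3 counts, taken as the detection floor, equal 0.351 to 1.29 CPM, counts scaled to a common library size. Such floors cover counting error only. LMNB1, the gene of the fusion, took 0.304% to 0.520% of counts in the 4 fraction libraries and 2.96% to 9.49% in the 4 lamina libraries. The 5 HEK293 marker genes summed to 501 to 1780 normalised CPM in every library, and markers of leukocytes, of endothelium and of K562 cells to at most 5.29. The HEK293 sum was mostly VIM, with 276 to 1437, while PAX2 had 0 to 6.24. The 3 fibroblast markers summed to 10.9 to 36.0 and the 5 markers of HCT116, a colon line, to 12.7 to 51.3, and their part in the results was not tested. The HCT116 sum was mostly CDX2, with 9.32 to 48.3, and 2 of its markers had at most 3 counts in every library. The nuclear RNA MALAT1 had 10942 and 16493 normalised CPM in the nuclear libraries and 794 and 973 in the cytosolic ones. The native preparation had 5446 and 12224, and the PFA preparation 594 and 3074, so the PFA libraries differed from each other in their nuclear RNA. The header of cytosolic replicate 1 names nuclear replicate 1 as its output and cytosolic replicate 1 as its input, and with 794 CPM of MALAT1 it lay beside cytosolic replicate 2.

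Promoters are shown first, because HIF is known to act on many of these genes through the letters they hold. RefSeq start sites of build GRCh38.p14 were given for 37 members, with 63 start sites in all, each with 250 bases before and 50 after it. On either strand, ACGTG was present at 14 of 23 start sites of low-oxygen genes and at 16 of 40 of enzymes, against 21.4% of 35116 start sites of all genes and 24.8% of those of the genes tested. The letters GCGTG were at 12 of 23 and 16 of 40 start sites, against 36.5% and 47.1%. Some genes have several start sites, which weigh on these shares. Counted per gene, with a match at any start, ACGTG was held by 13 of 18 low-oxygen genes and 12 of 19 enzymes. Of the genes tested, 31.4% held it. GCGTG was held by 9 of 18 low-oxygen genes and 13 of 19 enzymes, against 56.6% of the genes tested. The palindrome CACGTG holds ACGTG on both strands. The median GC content was 68.3% for the start sites of enzymes and of low-oxygen genes, and 64.3% for those of the genes tested. NDRG1, VEGFA and BNIP3L have no entry. The stretches below lie upstream of the start and hold the match in capitals (ACGTG, or CACGT where it lies on the other strand), with strand and distance from the match to the start. They belong to 7 of the members whose PFA libraries lay below all 4 fraction libraries, and to GAPDH and LDHA, 2 enzymes without that separation.
ALDOC, chr17:28576901-28576941, minus strand, 28 bases: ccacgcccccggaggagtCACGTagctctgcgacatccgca
ANKRD37, chr4:185396680-185396720, plus strand, 143 bases: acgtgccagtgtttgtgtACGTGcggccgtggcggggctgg
ERO1A, chr14:52695650-52695690, minus strand, 114 bases: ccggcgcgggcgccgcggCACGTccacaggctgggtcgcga
HK2, chr2:74834061-74834101, plus strand, 48 bases: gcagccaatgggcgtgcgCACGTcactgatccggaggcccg
P4HA1, chr10:73096930-73096970, minus strand, 86 bases: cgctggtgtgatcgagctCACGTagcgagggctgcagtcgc
PDK1, chr2:172556064-172556089, plus strand, 8 bases: gctgcccgccacgtccctCACGTacc
PFKFB3, chr10:6202807-6202847, plus strand, 107 bases: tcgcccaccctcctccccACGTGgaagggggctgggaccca
GAPDH, chr12:6535166-6535206, plus strand, 80 bases: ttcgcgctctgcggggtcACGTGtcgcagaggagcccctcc
LDHA, chr11:18394472-18394512, plus strand, 73 bases: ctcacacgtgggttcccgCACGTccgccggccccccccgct
The windows of EGLN3, KDM3A, PFKFB4 and SLC2A1, whose PFA libraries were as low, hold no ACGTG. Those of KDM3A, PFKFB4 and SLC2A1 hold the other form, GCGTG, and that of EGLN3 holds neither. Among enzymes without that separation, ENO1, LDHB, PKM, PGAM1, PFKL and HK1 hold no ACGTG either. The stretches shown were picked for holding a match, so they do not compare the sets. A match is a description of the sequence rather than a site of binding.

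By the sign of the difference, all 19 enzymes were higher in cytosolic RNA. Of these, 14 were called lower in the nuclear fraction and none higher, with a median log2 fold change of -1.77 against 0.13 over all genes tested. Among all 16504 genes tested, 21.2% were called lower and 26.1% higher. The calls come from edgeR's quasi-likelihood test on the counts, with Benjamini-Hochberg adjustment over all genes tested and a threshold of 0.05. The rule used this contrast, and nothing is read from the counts of calls. Over all 39 members 26 were called, and 17 without nuclear replicate 1.

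**Figure D1:**
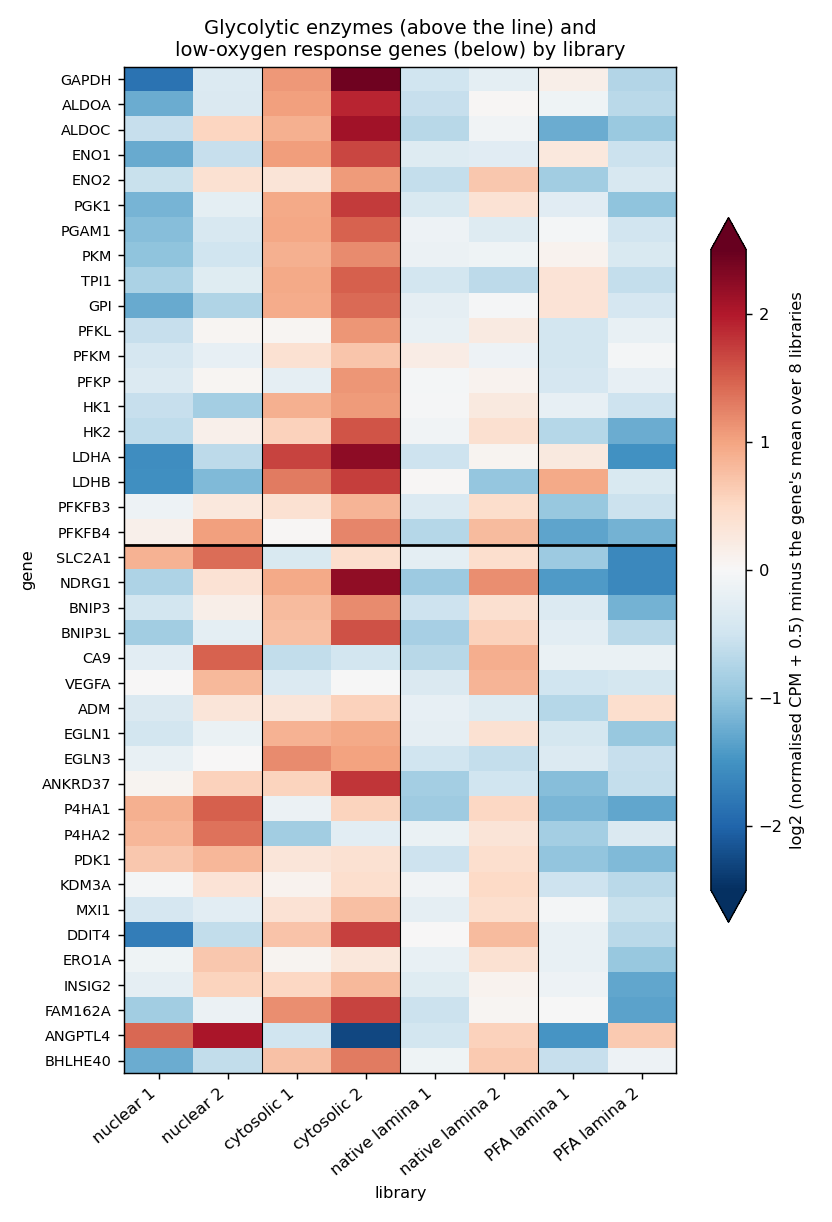
Log2 normalised CPM + 0.5 of each of the 40 members (rows) in each of the 8 libraries (columns), minus the gene's mean over the 8. Most enzymes, above the line, are red in both cytosolic libraries, most of all in replicate 2, while SLC2A1, P4HA1, P4HA2 and PDK1 below it are highest in the nuclear libraries.

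LDHA and LDHB, the subunits of lactate dehydrogenase, and GAPDH, which oxidises glyceraldehyde phosphate, had the largest differences. LDHA (hg19 chr11:18415936-18429765) had 105 and 195 normalised CPM in the nuclear libraries and 998 and 1455 in the cytosolic libraries. Its log2 fold change was -3.03 with a standard error (SE) of 0.53. The groups did not overlap, and the lower cytosolic library lay far above the higher nuclear one. LDHB (chr12:21788276-21810789) had 125 and 169 in the nuclear libraries and 894 and 1207 in the cytosolic ones, a log2 fold change of -2.84 (SE 0.47). GAPDH (chr12:6643571-6647541) had 257 and 727 in the nuclear and 1969 and 4951 in the cytosolic libraries. Its log2 fold change was -2.81 (SE 0.56), and leaving out each library in turn gave -3.77 to -2.02. The replicates of GAPDH themselves differed by more than 2-fold in both fractions, and still no nuclear library reached a cytosolic one.

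The other called enzymes had smaller differences, given here as log2 fold changes. Aldolase ALDOA had -2.27, enolase ENO1 -2.27, glucose phosphate isomerase GPI -2.18, phosphoglycerate kinase PGK1 -2.04, phosphoglycerate mutase PGAM1 -1.96, triose phosphate isomerase TPI1 -1.78 and pyruvate kinase PKM -1.77. Of the hexokinases, HK1 had -1.69 and HK2 -1.37. The aldolase isoform ALDOC had -1.54 and the muscle phosphofructokinase PFKM -0.86. The calls of ALDOC and HK2 were lost without nuclear replicate 1 or cytosolic replicate 2, at -0.83 and -0.81 without the latter, and that of PFKM in 5 of 16 alternatives. The 5 enzymes not called were the phosphofructokinases PFKL (-0.91) and PFKP (-0.72, with 61.7 and 80.6 normalised CPM in nuclear and 67.3 and 168 in cytosolic libraries), the neuronal enolase ENO2 (-0.75), and PFKFB3 (-0.56) and PFKFB4 (-0.09), which make and break down the regulator fructose 2,6-bisphosphate and are not steps of the pathway itself. The smallest differences were thus those of the phosphofructokinases, ENO2 and the PFKFB enzymes.

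Summed over the 19 enzymes, the level was 2654 and 4475 normalised CPM in the nuclear libraries and 11748 and 19849 in the cytosolic ones. The native preparation gave 4692 and 5533, and PFA fixation 6344 and 3849. The lamina libraries lay between the nuclear replicate 1 and the cytosolic pair, and no lamina library reached the lower cytosolic one. Per kilobase of exon, the mean level in the cytosolic libraries was highest for GAPDH (1829 CPM per kb), then ENO1 (763), LDHB (657), ALDOA (594), PKM (524), LDHA (480), TPI1 (397) and PGK1 (387). GAPDH also led in the nuclear libraries, at 260.1 CPM per kb, where ENO1 (158) and PKM (153) followed and LDHA stood at 58.7. The replicate ranges of neighbours in these orders overlapped, apart from GAPDH and ENO1 in the cytosol.

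**Figure D2:**
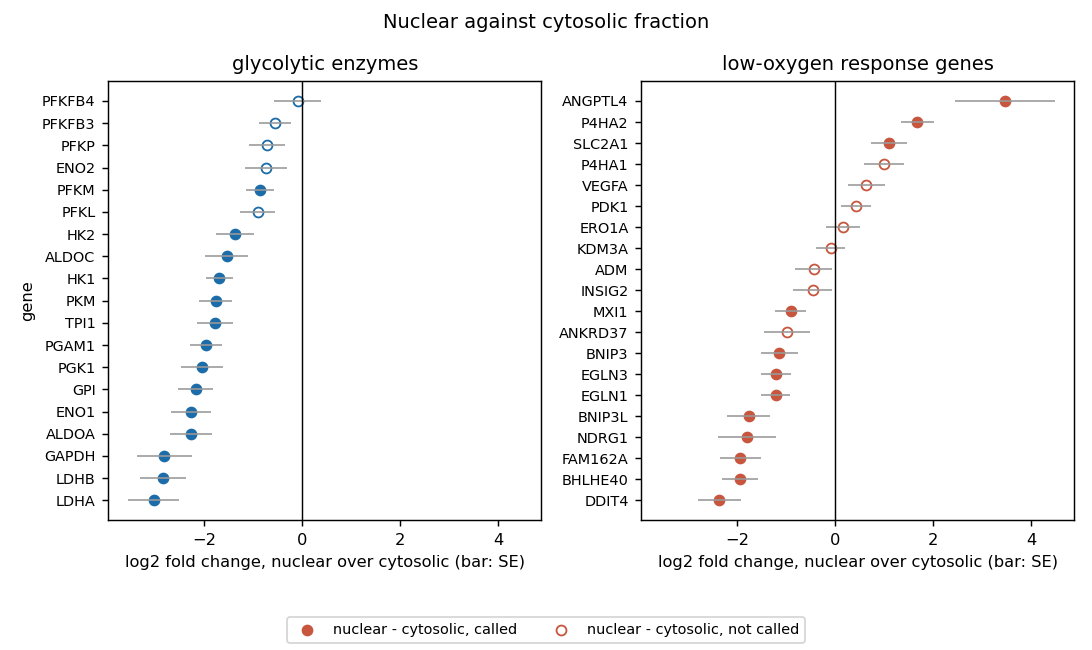
Log2 fold change of nuclear over cytosolic libraries for the 39 members tested (points; bars are standard errors; filled points were called by edgeR's quasi-likelihood test). All 19 enzymes lie left of 0, from LDHA at -3.03 to PFKFB4 at -0.09, while the low-oxygen genes run from DDIT4 at -2.37 to ANGPTL4 at 3.46.

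The low-oxygen genes went both ways between the fractions, with 13 below 0 and 7 above. Of 20 tested, 9 were called lower in the nuclear fraction and 3 higher, and their median was -0.69. Over all genes tested, 21.2% were called lower and 26.1% higher, and nothing is read from the counts. DDIT4, an inhibitor of the growth kinase mTORC1, had 41.5 and 90.4 normalised CPM in the nuclear libraries and 228 and 453 in the cytosolic ones, a log2 fold change of -2.37 (SE 0.45). The transcriptional repressor BHLHE40 had 47.5 and 74.3 against 188 and 282, a difference of -1.95 (SE 0.36). No library of either gene overlapped between the fractions.

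Lower in nuclear RNA too were the mitochondrial protein FAM162A (-1.94), the stress protein NDRG1 (-1.81), the mitophagy receptors BNIP3L (-1.77) and BNIP3 (-1.14), the prolyl hydroxylases EGLN1 and EGLN3 (both -1.22), and MXI1, an antagonist of MYC (-0.91). Of these, FAM162A alone kept its call under each alternative and with each library left out. NDRG1 had 156 and 345 normalised CPM in the nuclear and 518 and 1241 in the cytosolic libraries, and its difference was -1.07 and not called without cytosolic replicate 2.

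The genes higher in the nuclear fraction were P4HA2, SLC2A1 and ANGPTL4. P4HA2, a subunit of the collagen prolyl 4-hydroxylase of the endoplasmic reticulum (ER), had 56.1 and 81.1 normalised CPM in the nuclear and 17.1 and 26.2 in the cytosolic libraries, a log2 fold change of 1.67 (SE 0.34). SLC2A1, the glucose transporter GLUT1, had 134 and 193 against 56.1 and 97.9, a difference of 1.09 (SE 0.36) that was 0.72 and not called without cytosolic replicate 1. Both genes were higher in each nuclear than in each cytosolic library. ANGPTL4, a secreted inhibitor of lipoprotein lipase, rested on 39 and 55 counts in the nuclear and 9 and 0 in the cytosolic libraries, and its difference of 3.46 (SE 1.01) was not called without nuclear replicate 2 or cytosolic replicate 2.

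The products of these 3 genes are secreted or sit in the ER or the plasma membrane, and the same holds for CA9, the growth factor VEGFA, the peptide hormone ADM, P4HA1, the ER oxidase ERO1A and the sterol regulator INSIG2. This grouping was made after the values were seen, and BNIP3 and BNIP3L, which sit in the membrane of mitochondria, were left out of it. Of the 8 tested, 3 were called higher and none lower in the nuclear fraction, with a median of 0.81, where 26.1% of all genes tested were called higher. Of the 12 low-oxygen genes with another product, 9 were called lower and none higher, with a median of -1.22, where 21.2% of all genes were called lower. Both counts follow from a grouping chosen on these values, and nothing is read from their difference. P4HA1, the other collagen hydroxylase subunit, had 182 and 276 normalised CPM in the nuclear and 88.1 and 143 in the cytosolic libraries. Its difference of 0.99 (SE 0.41) was not called, although the libraries did not overlap. ERO1A (0.16), ADM (-0.44) and INSIG2 (-0.47) lay near 0.

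**Figure D3:**
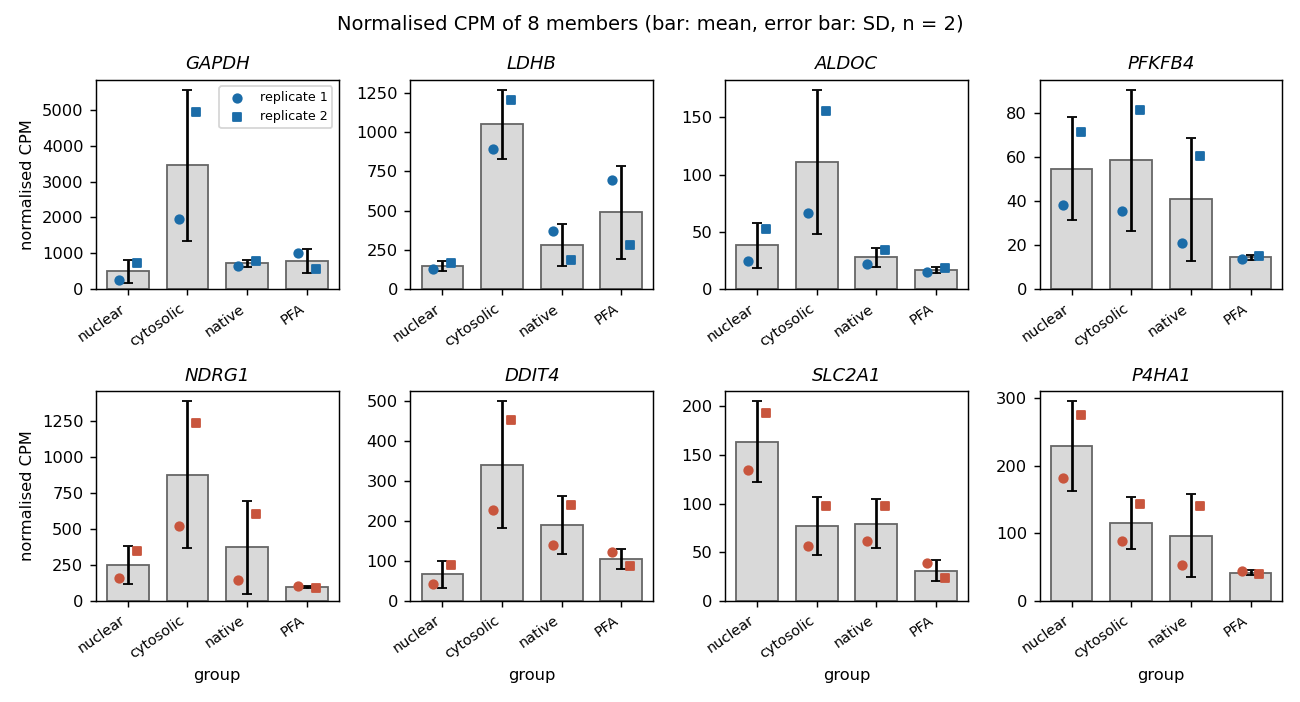
Normalised CPM of 4 enzymes (blue, upper row) and 4 low-oxygen genes (red, lower row) in the 4 groups; bars are means and error bars SD of 2 libraries, circles replicate 1 and squares replicate 2. GAPDH, LDHB, ALDOC, NDRG1 and DDIT4 peak in the cytosol, SLC2A1 and P4HA1 in the nuclear fraction, and PFKFB4, ALDOC, NDRG1, SLC2A1 and P4HA1 are lowest in the PFA libraries.

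Between the native lamina and the nuclear fraction the members' log2 fold changes ran from -1.85 (ANGPTL4) to 1.52 (DDIT4). The latter was the only member called, higher, while 3.87% of all genes tested were called higher and 3.44% lower. DDIT4 had 139 and 240.0 normalised CPM at the native lamina, against 41.5 and 90.4 in the nuclear fraction. Its log2 fold change was 1.52 (SE 0.43), with an adjusted p of 0.050 in edgeR's quasi-likelihood test, just under the threshold, and the call was lost with DESeq2 size factors, with upper-quartile factors and in 6 of 8 fits without a library. BHLHE40 had 105 and 178 against 47.5 and 74.3, a difference of 1.22 (SE 0.35) with an adjusted p of 0.053 by edgeR. Both genes lay higher in each native library than in each nuclear one. BHLHE40 also lay below the cytosolic pair, while native replicate 2 of DDIT4, at 240.0, lay above its cytosolic replicate 1.

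The enzymes had a median difference of 0.49 between native lamina and nuclear fraction, 16 of 19 above 0, and none was called. LDHB had 373 and 185 normalised CPM at the native lamina against 125 and 169, a difference of 0.93 (SE 0.44). The low-oxygen genes had a median of -0.16, which turned to 0.15 with total counts as the scale. The 8 tested members with an ER or membrane product were all below 0, with a median of -0.67. That grouping was made with the values of these nuclear libraries known, so nothing is read from their shared sign. P4HA1 had -1.25 (SE 0.41), SLC2A1 -1.04 (SE 0.36) and P4HA2 -1.03 (SE 0.33), with adjusted p of 0.075, 0.084 and 0.069 by edgeR. The count of 1 called member was 10 when only the 4 libraries compared were fitted, 5 with the Wald test of DESeq2, and 9 or 8 without PFA replicate 1 or 2. It was 0 without nuclear replicate 1 or 2, cytosolic replicate 1 or 2, or native replicate 1.

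Against the cytosolic fraction, 11 enzymes and 3 low-oxygen genes were called lower at the native lamina and none higher, where 6.77% of all genes tested were called lower and 6.99% higher. GAPDH had 649.6 and 781 normalised CPM at the native lamina, a log2 fold change of -2.27 (SE 0.55) from its cytosolic 1969 and 4951. LDHA had 215 and 322 (-2.19, SE 0.51) and ALDOC 21.9 and 33.8 (-2.00, SE 0.44). None of their native libraries reached a cytosolic one. The low-oxygen genes were ANKRD37, FAM162A and EGLN3. The hydroxylase EGLN3 had 11.6 and 10.9 normalised CPM at the native lamina and 38.4 and 33.8 in the cytosolic fraction, a log2 fold change of -1.68 (SE 0.31). Its native libraries also lay below the nuclear ones, which had 14.4 and 16.6. None of the 14 calls was left without cytosolic replicate 2, 5 were left without cytosolic replicate 1, 4 without native replicate 1 and 1 without native replicate 2, where 3 members were called.

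At the PFA lamina 1 member was called higher than in the nuclear fraction and 5 lower, against 9.63% and 7.81% of all genes tested. With total counts as the scale the split was 2 higher and 5 lower. The count of 6 was 0 without nuclear replicate 1, 3 without nuclear replicate 2 and 11 without PFA replicate 2. The member that rose was LDHB, with 698 and 279 normalised CPM against 125 and 169 in the nuclear libraries. The log2 fold change was 1.73 (SE 0.45) with an adjusted p of 0.024 by edgeR. Both PFA libraries lay above both nuclear ones, but PFA replicate 1 carried most of the difference, which was 0.93 and not called without it. The call was also lost without nuclear replicate 1 or 2, and when only the 4 libraries compared were fitted. LDHA, the partner subunit, had 364 and 108 at the PFA lamina against 105 and 195, and its difference of 0.66 (SE 0.49, adjusted p 0.36 by edgeR) was not called.

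The members that fell were SLC2A1, P4HA1, P4HA2, PDK1 and PFKFB4. SLC2A1 had 38.6 and 23.5 normalised CPM at the PFA lamina against 134 and 193 in the nuclear fraction, a log2 fold change of -2.38 (SE 0.38, adjusted p 0.0062 by edgeR). P4HA1 had 43.9 and 39.3 against 182 and 276, a difference of -2.46 (SE 0.44, adjusted p 0.0075 by edgeR). The highest PFA library of either gene lay far below its lowest nuclear one. PDK1, the kinase that keeps pyruvate out of the citric acid cycle, had 32.6 and 30.1 against 104 and 115 (-1.80, SE 0.32, adjusted p 0.0075 by edgeR). P4HA2 had 17.2 and 24.2 against 56.1 and 81.1 (-1.74, SE 0.35, adjusted p 0.0093 by edgeR). PFKFB4 had 13.6 and 15.1 against 38.1 and 71.2 (-1.93, SE 0.52, adjusted p 0.026 by edgeR). In all 5 the PFA pair lay below the nuclear pair, and in all 5 the call was lost without nuclear replicate 1, the lower nuclear library.

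Among the enzymes the median difference from the nuclear fraction was 0.35, with 12 of 19 above 0, and among the low-oxygen genes it was -0.77, with 16 of 20 below 0. Over all genes tested the median was -0.04. GPI (0.99, SE 0.34) and ENO1 (0.79, SE 0.39) lay highest after LDHB, and ALDOC (-1.19, SE 0.46) lowest after PFKFB4. In the 8 tested low-oxygen genes with an ER or membrane product the median was -1.34, with 3 called lower. In the other 12 it was -0.36, with 1 called lower, where 7.81% of all genes tested were. That grouping was made with the values of these nuclear libraries known, so nothing is read from the difference. The nuclear RNAs MALAT1, NEAT1 and KCNQ1OT1 were also lower at the PFA lamina than in the nuclear fraction, by -2.90, -3.03 and -2.88, and their part in the members' differences was not tested.

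**Figure D4:**
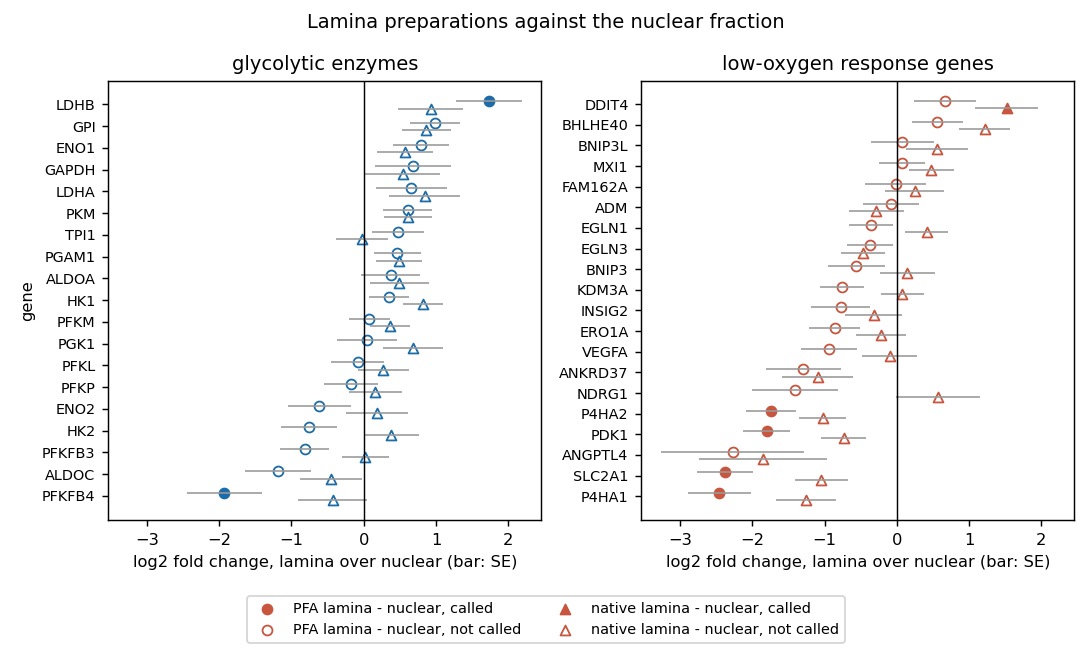
Log2 fold change over the nuclear fraction for the PFA lamina (circles) and the native lamina (triangles), with standard errors; filled symbols were called by edgeR's quasi-likelihood test, and both comparisons share the nuclear libraries. LDHB at 1.73 is the filled circle on the right and 5 members from PDK1 and P4HA2 to P4HA1 at -2.46 are filled on the left, while DDIT4 at 1.52 is the filled triangle.

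Against the cytosolic fraction, ALDOC, HK2, HK1, NDRG1, EGLN3 and EGLN1 were called lower at the PFA lamina and no member higher, where 0.145% of all genes tested were called lower and 0.527% higher. The rule used this contrast for ALDOC and NDRG1, and nothing is read from the count. NDRG1 had 100.3 and 87.8 normalised CPM at the PFA lamina against 518 and 1241 in the cytosolic fraction, a log2 fold change of -3.22 (SE 0.63). ALDOC had 14.9 and 18.7 against 66.7 and 156 (-2.73, SE 0.47), and HK2, the hexokinase that rises with low oxygen, 87.2 and 60.2 against 216 and 431 (-2.13, SE 0.40). All 3 also lay below both nuclear libraries. The count of 6 was 30 without the filter or without PFA replicate 1, 27 with the Wald test of DESeq2, 20 with a replicate block and 14 with at least 10 counts in every library. It was 3 when only the 4 libraries compared were fitted, 0 without nuclear replicate 1 or either cytosolic replicate, and 1 without nuclear replicate 2 or PFA replicate 2. Without native replicate 1 or 2 it was 12 or 15. The count therefore depends on the setting and on single libraries.

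No member was called between the PFA and the native lamina, as no gene was (0% of 16504 in either direction), by edgeR's quasi-likelihood test. At an unadjusted p under 0.05 there were 10 members and 1820 genes in all, and DESeq2's Wald test called 1 member. The largest difference was that of NDRG1, -1.98 (SE 0.60, adjusted p 0.32 by edgeR). Its native libraries lay far apart at 142 and 603 normalised CPM, so the PFA pair lay only a little below native replicate 1. Without the filter on low counts 5 members were called.

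In all, 13 members had both PFA libraries below all 4 fraction libraries, 33.3% of the 39 tested, and none had both above. Over all genes tested 4.65% lay below and 6.7% above. The comparison holds both contrasts with PFA libraries, of which the rule used the cytosolic one in part, so it is a description. The 4 enzymes were ALDOC, HK2, PFKFB3 and PFKFB4, and the 9 low-oxygen genes were ANKRD37, EGLN3, ERO1A, the histone demethylase KDM3A, NDRG1, P4HA1, PDK1, SLC2A1 and VEGFA. VEGFA, for example, had 35.6 and 37.1 normalised CPM in the PFA libraries and 39.9 to 88.7 in the fractions, a gap smaller than the spread of either fraction. PDK1 had 32.6 and 30.1 against 79.7 to 115, with no library in between. With total counts as the scale 13 members lay below, with DESeq2 size factors 14 and with upper-quartile factors 15. PFA replicate 1 alone lay below for 17 members (15.6% of all genes tested) and PFA replicate 2 alone for 18 (13.7%).

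The abundant enzymes were not among the 13, since GAPDH, ENO1, LDHA, LDHB, PKM, PGK1, TPI1, ALDOA and GPI each had at least 1 PFA library within the range of the fractions. Of 31 other known HIF targets tested, 3 lay below all fraction libraries (the long RNA MIR210HG, the collagen lysyl hydroxylase PLOD2 and the hormone STC1), or 9.68%. That count was 5 with DESeq2 size factors or total counts and 6 with upper-quartile factors, and PFA replicate 1 or 2 alone gave 10 or 11. Of 21 other glycolysis genes it was the neuronal glucose transporter SLC2A3 alone, and of 17 citric acid cycle genes none. At the native lamina 2 members, ANKRD37 and EGLN3, lay below all fraction libraries and none above, where 6.41% and 7.19% of all genes tested did. ANKRD37, a small ankyrin repeat protein, is uncertain, because 45.9% of its exonic length overlaps UFSP2 on the opposite strand and strand was ignored in counting. It had 3.94 and 5.15 normalised CPM at the native lamina and 7.92 to 27.2 in the fractions, while UFSP2 had 17.8 and 16.2 and 16.2 to 40.7.

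Outside the PFA libraries, the replicates were ordered in the same way for most members. Replicate 2 lay above replicate 1 for 38 of 39 members in nuclear RNA, for 37 in cytosolic RNA and for 33 in the native preparation, where over all genes tested it did for 55.3%, 48.7% and 48.4%. After PFA fixation it did for 13 of 39, against 50.7%. The median log2 ratio of replicate 2 to replicate 1 over the members was 0.63, 0.54, 0.59 and -0.41 in that order of groups, and over all genes tested 0.06, 0.00, -0.02 and 0.02. With 1 library on each side this has no test, and the members share those libraries.

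At least a 2-fold excess of replicate 2 was reached by 4 members in nuclear RNA (2.15% of all genes tested), 7 in cytosolic RNA (3.38%), 7 in the native preparation (2.93%) and 2 after PFA fixation (16.6%). GAPDH led in both fractions, with log2 ratios of 1.5 and 1.33. PDK1, with 79.7 and 84.4 normalised CPM in the cytosolic libraries, was the third lowest there (0.08), after ANGPTL4 and EGLN3. NDRG1 had 1.15 and 1.26 there and 2.08 at the native lamina, where PFKFB4 followed with 1.51 and P4HA1 and BNIP3L with 1.40 and 1.41. LDHB went the other way at the native lamina, by -1.01, and at the PFA lamina LDHA (-1.75), FAM162A (-1.34), LDHB (-1.32) and INSIG2 (-1.17) had at least a 2-fold excess of replicate 1. HK1 was the exception in the nuclear fraction (-0.26) and EGLN3 (-0.18) and ANGPTL4 in the cytosolic fraction, the latter on 9 and 0 counts.

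The direction depends in part on the scale. With total counts the number of members with replicate 2 above was 36 in the nuclear, 28 in the cytosolic and 33 in the native libraries, and 19 at the PFA lamina. Relative to the median of all genes on the same scale it was 38, 37, 33 and 13 of 39. A scaling shifts all genes of a library nearly alike, so this count could not tell the 4 scalings apart. Related genes differed from the members in some groups and not in others. Among 31 other HIF targets replicate 2 was the higher for 22, 20, 22 and 15 in nuclear, cytosolic, native and PFA libraries, with medians of 0.28, 0.22, 0.55 and -0.03. The native median lay close to the 0.59 of the members. Among 17 citric acid cycle genes it was the higher for 12, 12, 2 and 2, with medians of 0.14, 0.29, -0.46 and -0.68, and in the PFA libraries they thus lay on the same side as the members. For genes of oxygen sensing it was 10, 5, 8 and 8 of 14. MALAT1 was also higher in replicate 2 of every group, including the 594 and 3074 normalised CPM of the PFA pair, and its part was not tested.

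**Figure D5:**
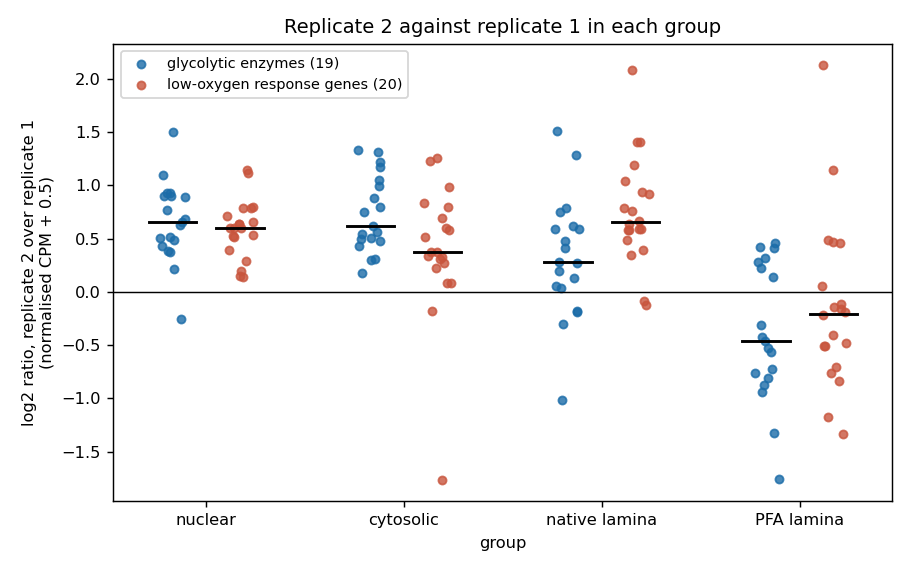
Log2 ratio of replicate 2 to replicate 1 (normalised CPM + 0.5) for the 19 enzymes (blue) and 20 low-oxygen genes (red) tested, per group; black lines are medians. Of 39 points, 38 lie above 0 for nuclear, 37 for cytosolic and 33 for native libraries, and 13 for PFA libraries.

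Isoforms of the same step were not spread alike over the groups. Per exonic length, the ratio of ENO2 to ENO1 was 0.271 and 0.323 in the nuclear libraries and 0.0997 and 0.109 in the cytosolic ones. That of ALDOC to ALDOA was 0.169 and 0.198 against 0.0967 and 0.123, and it was 0.0477 and 0.0886 at the PFA lamina. Both ratios were higher in each nuclear than in each cytosolic library. At the native lamina ENO2 to ENO1 was 0.137 and 0.326, so its replicate 2 reached the nuclear level, and ALDOC to ALDOA was 0.0959 and 0.0984. The ratio of LDHB to LDHA was 1.91 and 1.38 in the nuclear and 1.43 and 1.32 in the cytosolic libraries. After PFA fixation it was 3.06 and 4.14, above every other library, although the 2 PFA libraries differed widely in each subunit. In the native preparation it was 2.78 and 0.916, so those libraries straddled the fractions. HK2 to HK1 was 0.615 and 0.526 at the PFA lamina and 0.707 to 1.72 elsewhere. The ratio of EGLN3 to EGLN1 was 0.422 and 0.262 at the native lamina, below the 0.542 to 0.663 of the other groups. P4HA2 to P4HA1 was 0.343 and 0.327 in the nuclear, 0.216 and 0.204 in the cytosolic, 0.593 and 0.314 in the native and 0.435 and 0.686 in the PFA libraries. These ratios compare only the libraries shown, and genes with pseudogene copies such as GAPDH, ENO1 and PGK1 may have lost reads that matched several places, since the headers show no counting of such reads.

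Against the cytosolic fraction, 13 of 17 citric acid cycle genes were called lower in nuclear RNA and none higher, with all 17 below 0 and a median of -1.36, so the negative sign was shared with the enzymes. Over all genes tested, 21.2% were called lower in this comparison and 26.1% higher. Of 21 other glycolysis genes 9 were called higher and 5 lower, with a median of 1.02. Of 14 genes of oxygen sensing, 8 were called lower in nuclear than in cytosolic RNA and none higher, with a median of -0.74. HIF1A, the regulated subunit of HIF-1, had 60.9 and 68.6 normalised CPM in the nuclear and 97.6 and 118 in the cytosolic libraries. The PFA libraries had 104 and 91.8, and its difference of 0.60 from the nuclear fraction was not called (adjusted p 0.12 by edgeR), so the low PFA level of SLC2A1 or P4HA1 was not seen for this subunit. Of the 31 other HIF targets, 9 were called lower and 2 higher at the PFA lamina than in the nuclear fraction, with a median of -0.74. Over all genes tested, 7.81% were called lower there and 9.63% higher. PPFIA4, a scaffold protein, had 5.90 and 24.2 against 88.7 and 97.8 (-2.71, adjusted p 0.016 by edgeR) and MIR210HG 1.84 and 3.67 against 9.63 and 14.1 (-2.18, adjusted p 0.041 by edgeR). Higher were HMOX1, a heme oxygenase (1.86, adjusted p 0.017 by edgeR), and CITED2, a competitor of HIF for its coactivator (1.13, adjusted p 0.020 by edgeR).

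Of the 21 other glycolysis genes, 2 were called lower at the PFA lamina than in the nuclear fraction and 1 higher, against 7.81% and 9.63% of all genes tested. SLC2A3 fell at the PFA lamina, from 205 and 373 normalised CPM in the nuclear fraction to 48.3 and 41.9 (-2.68, adjusted p 0.0072 by edgeR). The lactate transporter SLC16A1 fell from 355 and 329.8 to 143 and 118 (-1.39, adjusted p 0.010 by edgeR). The phosphatase PGAM5 rose from 50.3 and 62.6 to 161 and 106 (1.25, adjusted p 0.019 by edgeR). Of the citric acid cycle genes, 7 of 17 were called higher at the PFA lamina than in the nuclear fraction and none lower, with a median of 0.76. Succinate dehydrogenase subunit SDHB, for example, had 98.9 and 65.0 against 26.6 and 25.4 (1.66, adjusted p 0.016 by edgeR).

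Lamina-associated domains, stretches of chromatin held at the lamina, come here from HCT116, a colorectal carcinoma cell line, and not from HEK293FT. No member touched a domain in G1, S or G2, against 2.37%, 2.00% and 3.44% of 16316 genes tested, shares so small that 0 of 40 says little. The nearest was BNIP3, at 0.0812 Mb from a G1 domain, followed by PGK1 at 0.118 Mb in each stage, and the domain lists carry no replicate error.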

How the data were processed

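For RNA the authors deposited read counts for each gene symbol, made with featureCounts 1.5.2 on hg19 and RefFlat, per the file headers. Strand was ignored and a read over several genes counted for each of them, per the file headers. The submitters' processing notes also name TopHat2 2.1.1 and Bowtie2 2.3.2. Of 27630 genes, 3981 had no count, and 16504 passed filterByExpr by group. The 8 libraries were fitted together with edgeR 4.0.16 under R 4.3.3 (TMM factors, quasi-likelihood test, 1 coefficient per group, no block), and Benjamini-Hochberg adjustment ran over all genes tested, with calls at an adjusted p under 0.05. Normalised CPM are counts over TMM-scaled library size, and ratios between replicates use CPM + 0.5. Alternatives were other size factors and filters, DESeq2 1.42.0 (Wald test), a replicate block, the 4 libraries compared alone, and leaving out each library. Scripts were tested on simulated data.

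The members, the gene lists and the tests were chosen with earlier results of these data known. All members could be named, with values per library for the called members of largest change, for those at both ends of the cytosolic replicate ratio and for isoenzyme pairs. Values per library of further genes were picked once the values were known. The deposited domain lists of HCT116 hold intervals without scores, and the K562 samples, whose labels conflict, and the H3K9me3 samples are not analysed here.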

Additional observations from a re-analysis of the deposited data

How the results depend on the processing

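The calls of members over all comparisons, in which a gene can count more than once, numbered 53. Under 847 alternatives none of these log2 fold changes changed sign, and 138 of the alternatives ended the call. The number of members called between nuclear and cytosolic fraction was 26, and 17 to 29 with a library left out. Between native lamina and nuclear fraction it was 1. It was 0 with DESeq2 size factors or upper-quartile factors, 4 with total counts, 6 without the filter, 2 with at least 10 counts in every library, 5 with the Wald test, 10 with the 4 libraries compared, and 0 to 9 with a library left out. Between native lamina and cytosolic fraction it was 14, and 0 to 19 with a library left out. Between PFA lamina and nuclear fraction it was 6, 11 without the filter, and 0 to 11 with a library left out. Between PFA lamina and cytosolic fraction it was 6, 30 without the filter, 14 with at least 10 counts, 27 with the Wald test, 3 with the 4 libraries compared, and 0 to 30 with a library left out. Between the lamina preparations it was 0, 5 without the filter and 1 with the Wald test. Members past 2-fold between replicates, in either direction, numbered 4 in nuclear and 8 in cytosolic RNA, and 1 in each with total counts. Leaving out a library leaves 1 in its group, assumed to vary like the others. The cause of these shifts was not tested.

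Replicate numbers pair no samples by the labels. With the replicate number as a block, 29, 4, 17, 8, 20 and 0 members were called in the same order of comparisons, against 26, 1, 14, 6, 6 and 0. The deviations of same-numbered libraries correlated across genes at 0.28 between nuclear and cytosolic fraction and at 0.32 between the lamina preparations, and at -0.07 to 0.16 otherwise.

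Total counts moved the median of all genes by 0.29 in both native comparisons, and upper-quartile factors by 0.27 between the fractions. Depth was lowest in PFA replicate 2, where 3 counts equal 1.29 CPM.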

Other observations

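Genes of the integrated stress response and the unfolded protein response, to which DDIT4 also belongs in many cells, were compared between the same groups. Of 12 tested, 3 were called higher at the PFA lamina than in the nuclear fraction and 1 lower, with a median log2 fold change of 0.80. Over all genes tested, 9.63% were called higher and 7.81% lower. TRIB3, a pseudokinase induced by ATF4, had 39.1 and 39.3 normalised CPM in the PFA libraries against 11.5 and 9.43 in the nuclear ones, a difference of 1.90 (adjusted p 0.0064 by edgeR). HSPA5, the main chaperone of the ER, had 261 and 199 against 612 and 534, a difference of -1.32 (adjusted p 0.014 by edgeR). Between nuclear and cytosolic RNA, 7 of the 12 were called lower in the nuclear libraries and 1 higher, HSPA5 at 1.23. Their median was -0.96, and 21.2% of all genes tested were called lower and 26.1% higher. Both TRIB3 and HSPA5 had PFA and nuclear libraries that did not overlap.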
